A study of Mus musculus with 6 samples.

Results

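The acetylcholine receptor of skeletal muscle and the proteins that gather it under the nerve were followed through 10 genes, the receptor subunits Chrna1, Chrnb1, Chrnd, Chrng and Chrne and the clustering genes Musk, Rapsn, Dok7, Lrp4 and Agrn. The members were every probe set to which the platform annotation gives exactly 1 symbol and whose symbol is among these 10. That gave 14 of the 45101 probe sets on the array, and each of the 10 genes had at least 1. RNA came from primary mouse myoblasts, the precursor cells that fuse into myotubes, in 3 control arrays and 3 arrays of cells infected with a lentivirus carrying an shRNA (a short hairpin RNA that degrades its target) against the long non-coding RNA LncMyoD in the Tet-pLKO-puro vector. All 6 samples are labelled 21 days old; strain, the control treatment, any inducer, the number of hairpins and the medium at harvest are not stated in the labels. The labels call the replicates biological but name no separate animals or cultures, so the p-values describe the scatter of these 6 arrays, part or all of which may be technical. The level of LncMyoD itself was not analysed here.

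The muscle receptor is a cation channel opened by acetylcholine from the motor nerve. Embryonic and denervated muscle builds it from alpha, beta, delta and gamma subunits, and in adult synapses epsilon takes the place of gamma. Nerve-derived agrin binds Lrp4, which activates the receptor tyrosine kinase MuSK; Dok7 sustains that activation from inside the cell, and rapsyn ties the receptors into a dense cluster. In cultured muscle cells the subunit genes switch on as myoblasts differentiate, before any nerve is present.

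Signals are the authors' normalized log2 values, in which a step of 1 is a 2-fold difference. Of the 14 probe sets, 11 passed a filter that removed the dimmest 40% of probe sets, those averaging below 6.50 across the 6 arrays. The 3 left out were the single probe set of Chrne and the dimmer probe sets of Chrng and Agrn, so 9 genes were tested and Chrne was not. Signals of different probe sets depend on their oligonucleotides and give no order of transcript levels between genes. Markers of differentiated muscle had signal in both groups. All 10 of them were tested, and the log2 of their summed signal ran from 16.78 to 16.81 in controls and from 16.67 to 16.70 in shRNA arrays. The brightest markers weigh most in this sum, and single markers differed between the groups, as given below. Of 10 motor neuron markers 8 lay under the filter, among them Chat, the enzyme that makes acetylcholine, at 5.10 in controls and 5.02 in shRNA arrays.

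**Figure D1:**
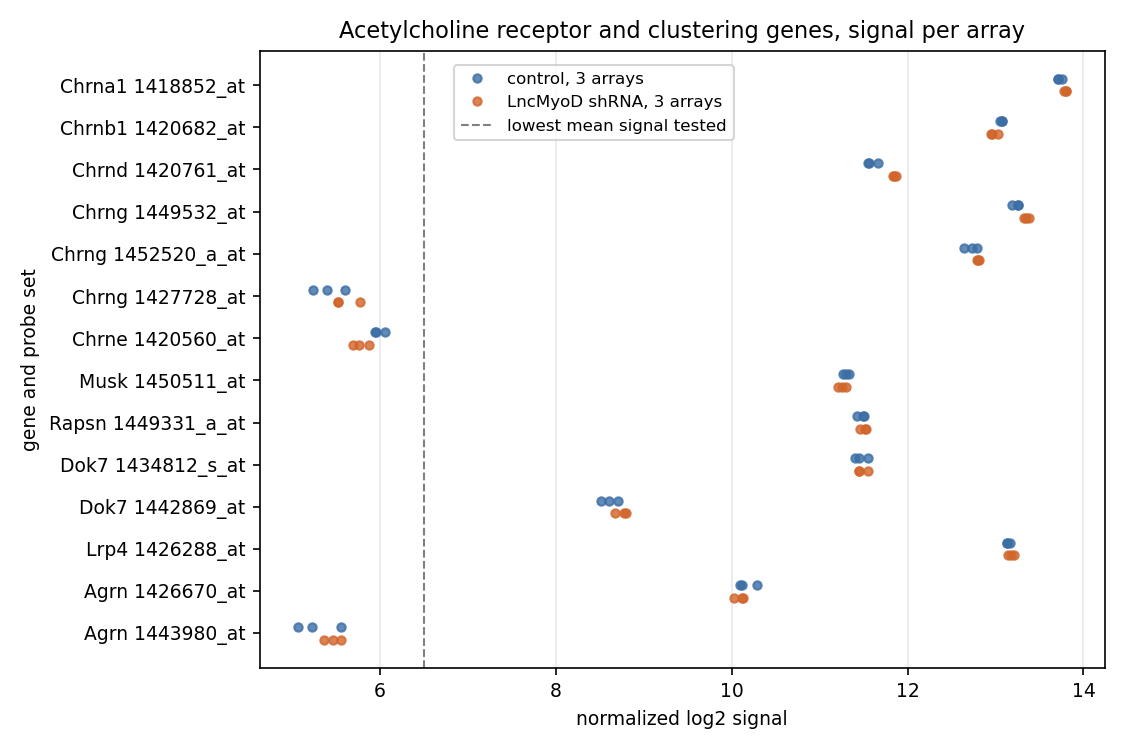
Normalized log2 signal (horizontal axis) of the 14 probe sets of receptor and clustering genes, with 1 point per array, 3 control and 3 LncMyoD shRNA; the dashed line is the lowest mean signal tested, 6.50. The arrays of each probe set lie close together, and Chrne and the dimmer probe sets of Chrng and Agrn stand left of the line.

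Receptor promoters are textbook targets of the MyoD family, which binds E-boxes, so 300-base windows of the members were read from a RefSeq table (build GRCm38.p6), from 250 bases before the gene start to 50 after it. Windows were found for 7 of the 10 genes (Chrna1, Chrnb1, Chrng, Chrne, Musk, Dok7 and Agrn). The 4 subunits and Musk are shown, so that Chrng, which passed the test below, stands beside Chrne, whose signal was low. The windows of Dok7 and Agrn, each with 0 or 1 E-box, are not shown, and Chrnd, which also passed, had no window. Each is written 5′ to 3′ along its gene, and capitals mark the E-box CANNTG and the N-box core CCGGAA, an element bound by GABP in synaptic genes; both were searched on both strands.
Chrna1, chr2:73580289-73580588, minus strand: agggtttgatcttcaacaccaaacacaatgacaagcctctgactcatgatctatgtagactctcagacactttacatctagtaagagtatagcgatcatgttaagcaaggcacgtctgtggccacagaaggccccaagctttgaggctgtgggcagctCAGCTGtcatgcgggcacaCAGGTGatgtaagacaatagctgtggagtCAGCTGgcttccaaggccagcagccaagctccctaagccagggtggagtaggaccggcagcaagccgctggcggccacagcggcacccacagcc
Chrng, chr1:87205561-87205860, plus strand: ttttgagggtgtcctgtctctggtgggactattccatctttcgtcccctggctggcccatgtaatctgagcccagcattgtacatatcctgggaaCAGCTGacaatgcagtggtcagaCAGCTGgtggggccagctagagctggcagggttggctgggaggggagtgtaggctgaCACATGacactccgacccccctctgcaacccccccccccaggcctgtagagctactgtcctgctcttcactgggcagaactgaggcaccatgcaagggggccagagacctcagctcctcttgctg
Chrnb1, chr11:69795888-69796187, minus strand: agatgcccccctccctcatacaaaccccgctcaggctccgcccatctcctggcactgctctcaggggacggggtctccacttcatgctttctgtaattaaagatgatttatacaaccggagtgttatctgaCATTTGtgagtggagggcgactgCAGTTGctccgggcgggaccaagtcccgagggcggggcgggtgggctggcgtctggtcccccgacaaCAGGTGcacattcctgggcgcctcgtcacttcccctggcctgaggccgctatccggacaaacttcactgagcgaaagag
Chrne, chr11:70619145-70619444, minus strand: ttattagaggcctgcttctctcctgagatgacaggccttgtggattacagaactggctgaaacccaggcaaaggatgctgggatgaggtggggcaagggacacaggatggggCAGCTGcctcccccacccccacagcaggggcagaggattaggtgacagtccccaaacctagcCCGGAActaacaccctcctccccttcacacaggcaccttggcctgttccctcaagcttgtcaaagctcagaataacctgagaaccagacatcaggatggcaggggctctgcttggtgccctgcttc
Musk, chr4:58285712-58286011, plus strand: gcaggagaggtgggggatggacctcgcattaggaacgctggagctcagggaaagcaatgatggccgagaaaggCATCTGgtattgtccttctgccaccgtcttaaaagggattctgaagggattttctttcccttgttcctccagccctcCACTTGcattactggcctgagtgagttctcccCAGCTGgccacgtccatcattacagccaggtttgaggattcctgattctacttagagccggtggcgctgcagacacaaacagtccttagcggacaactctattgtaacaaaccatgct

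Chrna1, Chrng, Chrnb1 and Musk each held 3 E-boxes in this window, and Chrne held 1. Of 32544 promoter windows of this length, 72.3% held at least 1 E-box and 17.6% held 3 or more. The form CAGCTG, which is also counted among the E-boxes, occurred at 2 places in Chrna1 and Chrng and at 1 in Chrne and Musk, against 16.4% of windows with at least 1 and 1.91% with 2 or more. The form CAGGTG, read on both strands and again a kind of E-box, occurred once each in Chrna1 and Chrnb1 and in 20.3% of all windows. Among the windows shown, the N-box core was found in Chrne alone, and 4876 of the 32544 windows held it. The window of Dok7 that starts farther upstream held 1 E-box and its other window 0; the windows of Agrn held 1 and 0. A match describes the letters in the window, and binding was not measured.

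**Figure D2:**
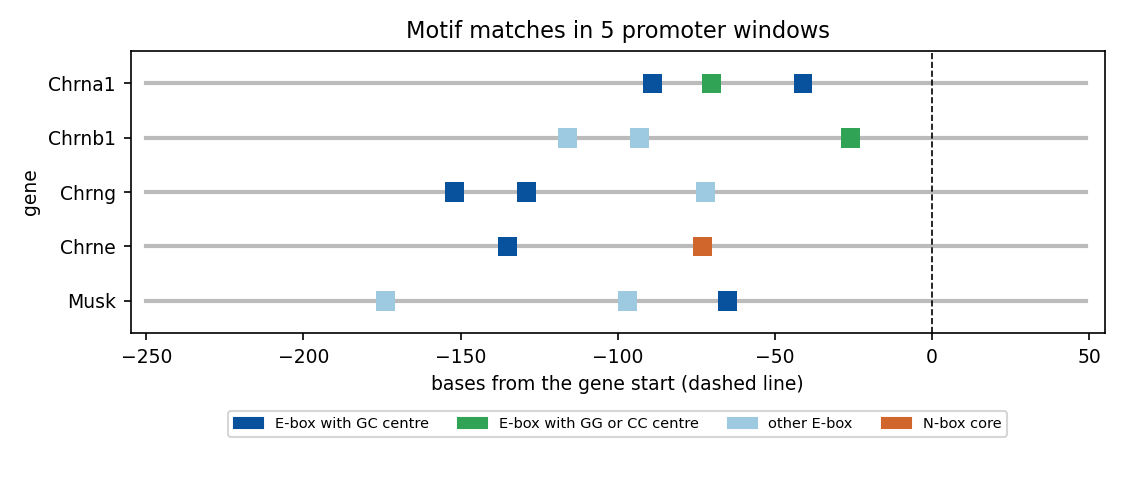
Positions of motif matches in 5 promoter windows, in bases from the gene start (horizontal axis, dashed line at 0); colours mark the E-box CAGCTG, the E-box CAGGTG in either orientation, other E-boxes and the N-box core. Chrna1, Chrnb1, Chrng and Musk show 3 E-boxes each, and Chrne shows 1 E-box and the N-box core.

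The comparison of shRNA with control arrays asks whether targeting LncMyoD, a candidate regulator of differentiation in muscle, altered transcripts of the receptor and its clustering proteins. In limma's test 2 of the 11 probe sets passed an adjusted p of 0.05, both higher in the shRNA arrays, and 0 passed lower (2 higher and 1 lower at an unadjusted limma p under 0.05); over all 27023 tested probe sets 53.9% passed, 30.4% higher and 23.5% lower. The 2 probe sets belong to the delta subunit gene Chrnd and to the gamma subunit gene Chrng, so 2 of the 9 tested genes rose and 7 did not pass, where 58.5% of all tested genes passed, 35.7% higher and 22.8% lower. The median difference over the 9 genes was 0.025 on the log2 scale, against 0.046 over all 12408 genes. The median size of the difference, whatever its sign, was 0.068 in these genes and 0.21 over all genes. Differences of this size depended on the scaling: the median of the tested probe sets was 0.064 higher in the shRNA arrays, and with each array centred on its median 1 member probe set was higher and 2 lower, beside 24.7% and 30.2% of all tested probe sets.

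On this array brighter probe sets had smaller differences, and several members are bright. Among the 1522 tested probe sets with a mean above 13, 40.6% passed with a median size of 0.072; the 4 members in that range, of Chrna1, Chrnb1, Chrng and Lrp4, had a median size of 0.077, and 1 passed. Among the 6150 probe sets with a mean above 11 and up to 13, 63.6% passed with a median size of 0.17. The 5 members in that range, of Chrnd, Chrng, Musk, Rapsn and Dok7, had a median size of 0.048, and 1 passed. These signal ranges were chosen after the values were seen.

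**Figure D3:**
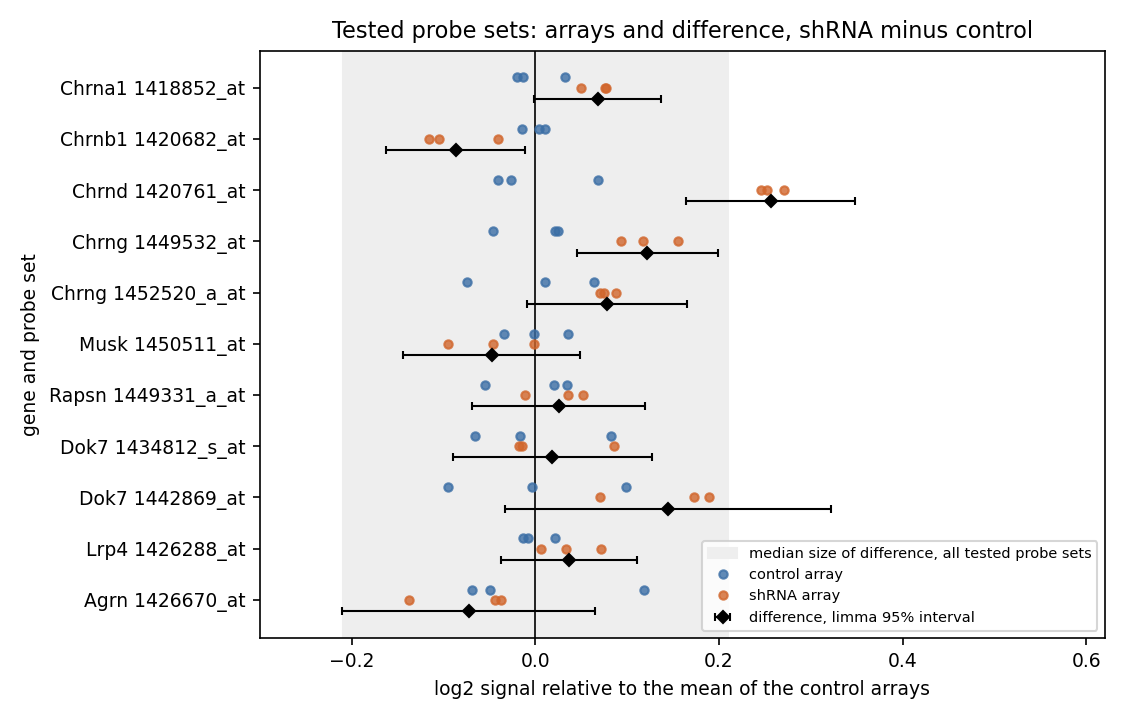
Log2 signal of each array relative to the control mean (horizontal axis) for the 11 tested probe sets, with points for control and shRNA arrays and a diamond with bars for the difference and its 95% interval from limma. The grey band spans the median size of the difference over all tested probe sets, 0.21, and the diamond of Chrnd alone lies outside it.

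Chrnd, the delta subunit that sits beside alpha at a ligand-binding site, rose. Its log2 signal was 11.55, 11.66 and 11.57 in the control arrays and 11.84, 11.86 and 11.84 in the shRNA arrays. Every shRNA array lay above every control array, and the 3 shRNA arrays were within 0.03 of each other. The difference was 0.26 (SE 0.043, n = 3 per group), or 1.19-fold, with a limma adjusted p of 0.00023. It passed the threshold in each of 12 alternative settings, where the difference ran from 0.19 to 0.29 and the limma adjusted p from 0.00019 to 0.0048.

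Chrng, the gamma subunit of the embryonic receptor, rose on its brightest probe set, 1449532_at. The signal was 13.25, 13.26 and 13.19 in control arrays and 13.35, 13.32 and 13.39 in shRNA arrays, without overlap. The difference was 0.12 (SE 0.035), or 1.09-fold, with a limma adjusted p of 0.011. The call ended with the arrays centred (0.058, limma adjusted p = 0.15), without a variance trend (0.12, 0.068) and without control 3 (0.099, 0.057), within a range of 0.0029 to 0.15 over 13 alternatives. A second bright probe set, 1452520_a_at, read 12.79, 12.73 and 12.65 in controls and 12.81, 12.79 and 12.80 in shRNA arrays. Its shRNA arrays lay just above the highest control, and its difference of 0.078 (95% interval -0.0096 to 0.16) did not pass (limma adjusted p = 0.12), although it did so without control 1 (0.11, 0.032) and under quantile normalization (0.092, 0.034). The gap between the 2 probe sets was 0.51 ± 0.037 in controls and 0.55 ± 0.031 in shRNA arrays (SD, n = 3), and a two-sided exact permutation test over 20 assignments gave p = 0.2. The dim probe set 1427728_at stood between 5.24 and 5.77 on the 6 arrays, under the filter.

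Chrne, the epsilon subunit of the adult receptor, was near the bottom of the scale. Its only probe set read 5.95, 5.94 and 6.06 in controls and 5.76, 5.70 and 5.87 in shRNA arrays, higher than 28.3% of all probe sets. Each shRNA array was below each control array, with a difference of -0.21, which had a limma adjusted p of 0.22 when all probe sets were tested without a filter. No test of this signal against background was possible, so the size of the difference is not settled.

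Chrng and Chrne were also set side by side as the per-array difference between their brightest probe sets, which can show unequal change between the groups but measures neither the ratio of the transcripts nor a subunit switch. It was 7.25 ± 0.10 in controls and 7.57 ± 0.059 in shRNA arrays (SD, n = 3), and no arrays overlapped between the groups. The groups differed by 0.33 in a two-sided exact permutation test with p = 0.1, the smallest that 20 assignments of 3 against 3 arrays can give. Leaving out any 1 array gave 0.27 to 0.36. More of this difference came from the decrease of 0.21 in the dim Chrne signal than from the rise of Chrng, so it carries the same limit.

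Chrna1 and Chrnb1, the subunits common to the embryonic and adult receptor, did not pass. Chrna1, which carries most of the acetylcholine-binding site, read 13.76, 13.71 and 13.72 in controls and 13.78, 13.81 and 13.80 in shRNA arrays. The shRNA arrays lay above the controls by a mean of 0.068 (95% interval -0.0012 to 0.14, limma adjusted p = 0.090). That difference became 0.0038 (limma adjusted p = 0.92) with the arrays centred and 0.091 (0.0035) under quantile normalization, and without control 1 it was 0.084 (0.046). Chrna1 passed in these last 2 of 12 alternatives, whose adjusted p ran from 0.0035 to 0.92. Chrnb1, the beta subunit, read 13.08, 13.07 and 13.05 in controls and 12.95, 13.03 and 12.96 in shRNA arrays. All 3 shRNA arrays were below the controls, by -0.087 (SE 0.035, 95% interval -0.16 to -0.011), and the limma adjusted p of 0.052 was just above the threshold. Chrnb1 passed in 4 of 12 alternatives, centring (-0.15, limma adjusted p = 0.0026), quantile normalization (-0.080, 0.035), the stricter filter (-0.087, 0.045) and without shRNA array 2 (-0.11, 0.047); its adjusted p ran up to 0.15.

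The groups did not overlap in 5 of the 11 tested probe sets, against 59.5% of all tested probe sets. These 5 were the probe sets of Chrna1, Chrnb1 and Chrnd and both tested probe sets of Chrng, 4 with the shRNA arrays higher and 1, of Chrnb1, with them lower. The 6 tested probe sets of the clustering genes overlapped; a difference between subunit and clustering genes was not tested, and with the arrays centred the differences of Chrna1 and of Chrng 1452520_a_at were 0.0038 and 0.013.

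Musk, the receptor tyrosine kinase at the centre of clustering, read 11.34, 11.27 and 11.30 in controls and 11.20, 11.25 and 11.30 in shRNA arrays. The highest shRNA array reached the middle of the control values, and the difference was -0.048 (95% interval -0.14 to 0.049, limma adjusted p = 0.40). With the arrays centred it was -0.11 (limma adjusted p = 0.042), the only one of 12 alternatives in which it passed, with adjusted p up to 0.74. Lrp4, the agrin receptor, read 13.13, 13.13 and 13.16 in controls and 13.15, 13.17 and 13.21 in shRNA arrays. Its difference of 0.037 (95% interval -0.037 to 0.11, limma adjusted p = 0.39) turned to -0.027 with the arrays centred.

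Rapsn, which encodes rapsyn, read 11.51, 11.50 and 11.42 in controls and 11.51, 11.46 and 11.53 in shRNA arrays. The arrays of both groups were interleaved, and the difference of 0.025 (95% interval -0.069 to 0.12, limma adjusted p = 0.65) was below 0 under centring (-0.039), quantile normalization (-0.0034) and without control 3 (-0.0018). Dok7, the adaptor that activates MuSK from the cytoplasm, read 11.55, 11.45 and 11.40 in controls and 11.45, 11.45 and 11.55 in shRNA arrays on its brighter probe set, 1434812_s_at. That difference was 0.018 (95% interval -0.090 to 0.13, limma adjusted p = 0.78) and fell below 0 in 4 of 13 alternatives. The dimmer probe set of Dok7, 1442869_at, read 8.70, 8.51 and 8.60 in controls and 8.78, 8.79 and 8.68 in shRNA arrays. Its difference of 0.14 (95% interval -0.033 to 0.32, limma adjusted p = 0.16) did not pass in any of 12 alternatives. The gap between the probe sets of Dok7 was 2.86 ± 0.072 in controls and 2.74 ± 0.12 in shRNA arrays, with p = 0.3 in the two-sided exact permutation test (n = 3 per group).

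Agrn encodes agrin, of which muscle makes a form with little clustering activity beside the potent form of nerve; the array does not tell these forms apart. Its bright probe set read 10.28, 10.10 and 10.12 in controls and 10.03, 10.12 and 10.13 in shRNA arrays. Control 1 was the highest of the 6 arrays and shRNA array 1 the lowest, while the other 4 lay within 0.03 of each other. The difference was -0.073 (95% interval -0.21 to 0.065, limma adjusted p = 0.36), and without control 1 it was -0.014; over 12 alternatives its adjusted p ran from 0.058 to 0.86. The second probe set of Agrn stood between 5.07 and 5.56 on the 6 arrays, under the filter. The 95% intervals of Musk, Rapsn, Lrp4 and the brighter Dok7 probe set had bounds of at most 0.14 in size, and those of Agrn and the dimmer Dok7 probe set reached -0.21 and 0.32.

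Signs of RNA integrity and of cell composition moved with the groups beside these values. The log2 ratio of 3′ to 5′ signal was 0.51 ± 0.018 in controls and 0.55 ± 0.017 in shRNA arrays for actin, and 0.14 ± 0.045 and 0.23 ± 0.038 for GAPDH (SD, n = 3; exact permutation p = 0.1 for each). Of the 10 markers of differentiated muscle 6 were lower and 1 was higher in limma's test. Ckm, among the lower, was at 10.53 in controls and 9.11 in shRNA arrays, and Myh8, the higher one, at 10.41 and 10.68. The brightest, Mylpf, did not pass (14.47 in controls and 14.49 in shRNA arrays). Among 7 markers of myoblasts and satellite cells 5 were higher, and the brightest, Myod1, did not pass (13.80 and 13.82). For these and the counts that follow, 58.5% of all tested genes passed, 35.7% higher and 22.8% lower. The summed log2 signal of the latter was 15.14 to 15.25 in controls and 15.44 to 15.51 in shRNA arrays. Schwann cell markers summed to 13.88 to 13.94 in controls and 13.25 to 13.30 in shRNA arrays. They were led by Erbb3, which is also in a pathway list below, and by Pmp22, at 11.63 and 11.39. Both fell in limma's test, while Ngfr (8.71 in both groups) and S100b (6.71 and 6.61) did not pass. The defining Schwann factor Sox10 was under the filter. Motor neuron markers summed to 10.35 to 10.38 and 10.62 to 10.68, led by Isl1, with 8 of 10 under the filter. Both tested were higher in limma's test, Isl1 at 9.79 in controls and 10.10 in shRNA arrays and Nefl at 6.48 and 7.18. Fibroblast markers summed to 11.21 to 11.40 and 10.86 to 10.96, led by Col3a1, with 4 of 8 under the filter. Of the 4 tested, 3 were lower and 1, Pdgfra, was higher (6.63 in controls and 7.51 in shRNA arrays). All 6 markers of endothelium were under the filter, the brightest of them Cdh5. Leukocyte markers summed to 8.88 to 9.02 and 9.09 to 9.26, with 4 of 7 under the filter. Of the 3 tested 2 were higher, Cd68 and Cd14, the latter at 6.12 in controls and 7.19 in shRNA arrays. The brightest of the list, Lyz2, did not pass (6.89 in controls and 6.88 in shRNA arrays). The part of these markers in the differences of receptor genes was not tested, and in such bulk RNA fewer cells of a type and less RNA per cell cannot be told apart.

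Other genes of the pathway were counted in 5 lists, of which 69 genes were tested: 18 were higher, 24 lower and 27 did not pass. The share that passed, 60.9%, was near the 58.5% of all tested genes. With the arrays centred 13 were higher and 31 lower. The 25 tested partners of MuSK signalling included 8 that rose and 6 that fell (56.0% passed; median 0.040 on the log2 scale, or -0.024 centred), again near the share over all genes. Sorbs2, a scaffold protein that binds Abl kinases, fell by 1.54 (SE 0.043, limma adjusted p = 6.85e-11) on its bright probe set, while a dimmer one stood at -0.16 (0.31). The Src family kinase Yes1 fell by 1.28 (SE 0.059) and all 3 of its probe sets fell past the threshold, and the phosphatase Ptpn11 fell by 0.39 (SE 0.039).

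Among 14 tested genes of the synaptic scaffold and basal lamina 4 rose and 5 fell, or 64.3% against 58.5% of all tested genes, with a median of -0.11. The dystrobrevins went opposite ways: Dtna fell by 0.48 (SE 0.058) and Dtnb rose by 0.57 (SE 0.069). Lama5, a laminin chain, rose by 0.72 (SE 0.083), and Plec, a cytoskeletal linker, fell by 0.25 (SE 0.033). Ache, the acetylcholinesterase that ends transmission, was near the filter at 7.22 ± 0.11 in controls and 6.98 ± 0.30 in shRNA arrays (SD, n = 3; limma adjusted p = 0.20).

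Of 14 tested genes of subsynaptic and activity-dependent transcription 6 rose and 5 fell, or 78.6% against 58.5% of all tested genes. Their median size was 0.62, against 0.21 over all genes and 0.068 for the receptor and clustering genes. These contrasts were not tested. The neuregulin receptor Erbb3 fell from 13.49 ± 0.038 to 12.67 ± 0.032 (SD, n = 3), or 1.77-fold. Etv5, an ETS factor of subsynaptic nuclei, rose 2.13-fold from 9.85 ± 0.018 to 10.94 ± 0.12. Of the histone deacetylases that couple nerve activity to receptor genes, Hdac4 rose 1.98-fold and Hdac9 fell 2.30-fold, and the other tested probe sets of both went the same way past the threshold. Gabpa, the DNA-binding subunit of GABP, the factor of the N-box marked in the Chrne window, fell from 11.81 ± 0.093 to 11.20 ± 0.043, or 1.53-fold (limma adjusted p = 5.53e-07). Gabpb1, another GABP subunit in the list, did not pass (-0.062, limma adjusted p = 0.28), nor did its other probe set (-0.23). Both genes were named after their values were seen, and a link to the Chrne signal was not tested.

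Of 11 tested genes of receptor assembly and glycosylation 7 were lower, 0 were higher and 4 missed the threshold. So 63.6% passed, near the 58.5% of all tested genes, where 35.7% were higher and 22.8% lower. The median of the 11 was -0.19, and the 4 that missed included Unc50 (0.10) and Alg2 (0.049). Alg14, counted as lower on its brightest probe set (-0.29), had another that rose (0.14). Unadjusted for multiple tests, limma's p was under 0.05 for 0 higher and 8 lower genes of this list. Hspa5, an endoplasmic reticulum chaperone, fell 1.65-fold from 13.61 ± 0.036 to 12.89 ± 0.023, and Dpagt1, which starts N-glycan synthesis, fell 1.48-fold from 10.54 ± 0.029 to 9.98 ± 0.043. Gmppb, which makes GDP-mannose, fell by 0.29 (SE 0.061). Gfpt1, the entry enzyme of hexosamine synthesis, fell by 0.24 (SE 0.045), but its other 4 tested probe sets did not pass, and their mean with it was -0.079 (limma adjusted p = 0.31). Of the nicotinic subunits outside the muscle receptor 5 of 10 were under the filter, and Chrna4 was the 1 of 5 tested that fell. Its signal went from 6.99 ± 0.38 to 6.26 ± 0.36 (SD, n = 3), with overlapping arrays and an shRNA mean under the filter level of 6.50 (limma adjusted p = 0.0083, and 0.054 without control 3).

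**Figure D4:**
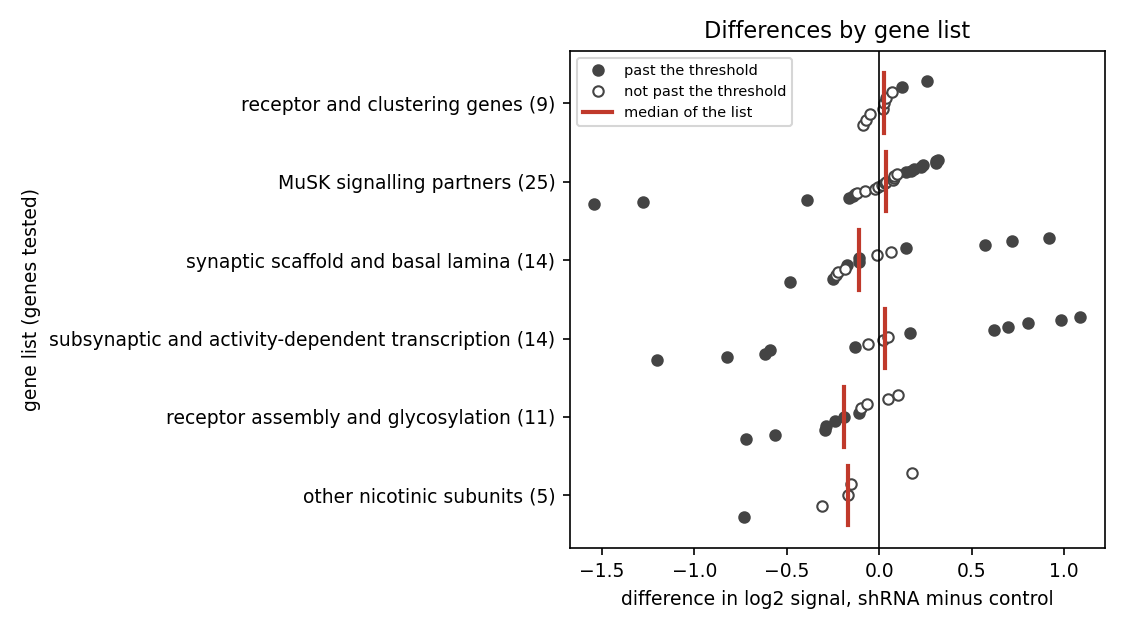
Difference in log2 signal, shRNA minus control (horizontal axis), of each tested gene in 6 lists (vertical axis, number of genes in brackets); filled points passed the threshold, open points did not, and red bars are medians. The 9 receptor and clustering genes lie between -0.087 and 0.26, and those of subsynaptic and activity-dependent transcription between -1.20 and 1.09.

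The genes whose arrays followed a member most closely were found by the Euclidean distance between log2 values over the 6 arrays, each gene centred on its own mean. For Chrna1 these were Uqcrh, Atp2a2 and Lamtor1, at distances of 0.019, 0.019 and 0.020, where the median over 12407 genes was 0.33. For Chrnd, the member with the largest difference, they were Cep95, Hsdl1 and Vac14, at 0.031, 0.042 and 0.043 against a median of 0.41. Cep95 read 9.35, 9.47 and 9.36 in controls and 9.61, 9.67 and 9.62 in shRNA arrays, so control 2 was its highest control, as in Chrnd.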

How the data were processed

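The deposited table gives a normalized log2 signal for every probe set on every array; its log2 scale was inferred from the range, 4.48 to 14.6. PLIER and MAS5 are named, without roles, per the submitters' processing notes; background correction and offset are not given in the labels. All 6 arrays shared a median over the whole table, which points to scaling before deposit; over the tested probe sets the median was still 0.064 higher in shRNA arrays. Neither scanner files nor detection calls were used. The number of arrays limits the precision. Of the value columns, 0 had no sample.

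The 64 control probe sets and then the lowest 40% by mean (18014) were left out. Differences (shRNA minus control, no covariates) were tested with limma 3.58.1 in R 4.3.3 (lmFit, eBayes with a mean-variance trend), with Benjamini-Hochberg adjustment over 27023 probe sets and a threshold of 0.05. A gene was read from its brightest tested probe set, _x_at only where it had no other. The calculations were tested on simulated data. Alternatives were scaling, filter, variance model, replicate block, choice of probe set and each array left out. All members were named, with up to 4 genes of smallest p past the threshold per pathway list (1 of them is not reported here), the 3 nearest genes for Chrna1 and Chrnd, and the brightest marker of each cell type list; Chat, Sox10, Pmp22, Cd68, Cd14, Ache, Gabpa, Unc50, Alg2 and Alg14 were added after their values were seen. The members and lists were chosen with earlier results of these data known.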

Additional observations from a re-analysis of the deposited data

How the results depend on the processing

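Against 2 higher and 0 lower member probe sets, centring the arrays gave 1 and 2, quantile normalization 4 and 1, leaving out the lowest 60% gave 2 and 1, and no variance trend gave 1 and 0. By gene, the counts were 1 higher and 2 lower with centring, 3 and 1 with quantile normalization, and 2 and 1 with the stricter filter. They were 1 and 0 without a variance trend, and 2 and 1 with the probe sets of a gene averaged. Leaving out 1 array gave 1 to 4 higher and 0 to 1 lower probe sets, and 1 to 3 higher and 0 to 1 lower genes; without control 1 there were 4 higher, without control 3 there was 1, and without shRNA array 2 there was 1 lower. Without 1 array Rapsn ran from -0.0018 to 0.044 and Dok7 1434812_s_at from -0.016 to 0.060. The sign turned for Rapsn with centring (-0.039), quantile normalization (-0.0034) and without control 3 (-0.0018), for Dok7 1434812_s_at with centring (-0.046), quantile normalization (-0.0074), without shRNA array 3 (-0.016) and without control 3 (-0.015), and for Lrp4 with centring (-0.027). The cause was not tested. Counts over the 5 pathway lists stayed within 1.5 times 18 higher and 24 lower in all alternatives, with 13 to 19 higher and 17 to 31 lower. The gamma to epsilon difference was 0.33 with quantile normalization of all probe sets except controls, chosen after seeing the data because Chrne was not among the tested probe sets. With the replicate number as a block, 2 member probe sets were higher and 0 lower, and the pathway lists had 16 higher and 20 lower. Same-numbered arrays shared no deviations beyond other pairs (correlations of -0.13, -0.061 and 0.031), so the numbers were not treated as pairs. Signal over background could not be tested, which limits Chrne, the dim Chrng and Agrn probe sets and Chrna4.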

Other observations

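Chrnd and Chrng, the 2 member genes that passed the threshold, are neighbours on mouse chromosome 1 in the gene order of GRCm38.p6, with no other protein-coding gene between them. The flanking genes were looked at after this was seen. Eif4e2, a cap-binding protein next to Chrng, was 13.48 ± 0.042 in controls and 13.57 ± 0.027 in shRNA arrays (SD, n = 3), a difference of 0.088 (SE 0.035, limma adjusted p = 0.047). The median of the tested probe sets was itself 0.064 higher in shRNA arrays, and 35.7% of all tested genes passed higher. A shared change of the region was not tested. Efhd1, between Eif4e2 and Gigyf2, was under the filter, at 5.71 in controls and 5.83 in shRNA arrays. Gigyf2, a translational repressor farther along, differed by -0.088 (SE 0.044, limma adjusted p = 0.12). On the other side of Chrnd, Prss56 and Ecel1 had signals under the filter, at 4.77 and 6.47 in controls and 4.63 and 6.45 in shRNA arrays. Akp3, the next gene, differed by 0.050 (SE 0.11, limma adjusted p = 0.73).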
